A study of Mus musculus with 24 samples.

Results

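Unsorted cells were compared with MacHigh cells, the cells sorted for high Mac-1 protein, by RNA sequencing of mouse acute myeloid leukaemia (AML). The libraries were chosen by their labels, and the comparison used 10 of the 24 libraries of the study: 5 of unsorted cells and 5 of MacHigh cells. The labels give all samples the NRASG12V/Mll-AF9 genotype, an activated NRAS with a fusion of the histone methyltransferase gene Mll to AF9. Whether each cell of an unsorted sample carried it was not tested. The cells came from spleens of leukaemic animals of the (FVB/n X C57/BL/6J) F1 strain, and the unsorted cells are labelled AML cells like the sorted ones. The labels name no promoter for NRASG12V or Mll-AF9, no age and no number of animals, and they do not say that replicates were separate animals, so p-values measure the spread between these libraries, which may be technical. The other 3 groups were sorted as MacLow and by Kit and Sca-1, and serve here for levels and for the shared estimate of spread.

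Mac-1 is the integrin of leukocytes whose alpha chain is encoded by Itgam, and its surface level rises as myeloid cells mature towards granulocytes, monocytes and macrophages. The mouse spleen is also a site of red cell formation, which expands when the marrow is displaced or the animal is anaemic. An erythroblast, the nucleated red cell precursor, makes globin, heme and the membrane proteins of the red cell under the transcription factors Gata1, Tal1 and Klf1. A sample of a spleen before sorting can hold such cells, lymphocytes, stroma and leukaemia cells of every Mac-1 level, and a cell with high Mac-1 can belong to it as well.

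The values were FPKM, fragments scaled to the length of a gene and to the fragments of the library. The FPKM of a library summed to 498584 to 547253 in unsorted cells and to 555631 to 636313 in MacHigh cells. Between 10956 and 11099 gene rows reached 1 FPKM in an unsorted library, against 10763 to 10874 in a MacHigh library. Depth in reads is unknown for these files. The steps between low values gave a depth relative to MacHigh replicate 1 of 0.898 to 1.79, with the ranges of both groups overlapping. On log2(FPKM + 1), libraries correlated at 0.95 to 0.975 within unsorted cells, at 0.956 to 0.972 within MacHigh cells and at 0.889 to 0.955 between the groups. A value of 0.001 stands for 0, and S100a9 in unsorted cells and Psap and Lyz2 in MacHigh cells were listed at 0.001 in all 5 libraries of that group while another group had 5 FPKM or more throughout. These 3 genes have no estimate in one group and were not compared.

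The label of the MacHigh cells was checked first on the genes of the sorted proteins. Itgam (chr7:128062640-128118491, mm10) had 392, 373, 352, 298 and 338 FPKM in the unsorted libraries, against 630.5, 693, 582, 659.5 and 600 FPKM in the MacHigh libraries. Every MacHigh library lay above every unsorted one, and the difference of the means was -0.85 on the log2(FPKM + 1) scale (exact two-sided permutation p = 0.00794, the smallest that 5 against 5 allows; 0.0119 adjusted over 3 genes). Kit, the receptor of stem cell factor, averaged 10.7 ± 1.75 FPKM in unsorted cells and 5.79 ± 0.844 FPKM in MacHigh cells (SD, n = 5 each), a difference of 0.78 without overlap (same exact p-values). Ly6a, the gene of Sca-1, averaged 2.11 ± 0.648 FPKM in unsorted cells and 2.35 ± 0.764 FPKM in MacHigh cells, and its groups overlapped (difference -0.10, exact permutation p = 0.603). The Ly6a difference changed sign with all libraries scaled to the same FPKM sum and without MacHigh replicate 2, where it was 0.03 and 0.01.

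Across the transcriptome, 4572 of 11596 gene rows tested differed between unsorted and MacHigh cells at an adjusted p under 0.05 (39.4%; limma over all 24 libraries, Benjamini-Hochberg). Of these, 2107 were higher in unsorted cells (18.2% of rows tested) and 2465 lower (21.3%). Large differences were rarer: 300 rows were called with a log2 difference of 1 or more (2.59%) and 241 with -1 or less (2.08%). Differences of 2 or more numbered 85 higher and 0 lower; at an unadjusted p under 0.05 there was 1 row at -2 or less, the small nucleolar RNA Snord22, and the lowest difference of any row called was -1.74. The median over all rows was -0.02; with equal FPKM sums it was 0.15, a shift of 0.167, and the share of higher rows among those called was 75.6% in place of 46.1%. Differences are given below on the scale of the deposited values.

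Red cell genes made up the top of the list. The 12 genes with the highest differences, small RNA genes and genes whose groups overlapped left out, were nearly all genes known from red cells or their precursors; Cldn13 is a claudin that stood on the erythroid list. The beta globin gene listed as Beta-s (chr7:103826523-103827928) had 1141, 836.5, 269, 1853 and 311 FPKM in unsorted replicates 1 to 5, against 7.63, 13.2, 5.06, 77.8 and 3.74 FPKM in MacHigh replicates 1 to 5. Unsorted replicate 4 was the highest of its group and replicates 3 and 5 the lowest, and MacHigh replicate 4 stood above the other MacHigh libraries. The log2 difference was 5.80 ± 0.75 (SE, limma adjusted p = 6.67e-06). A second adult beta globin gene, Hbb-b1, differed by 5.63 and the alpha globin gene Hba-a1 (chr11:32283672-32284486) by 4.9. Globin copies are nearly identical, so the split of fragments between Beta-s, Hbb-b1 and Hbb-b2, and between Hba-a1 and Hba-a2, is uncertain; Hba-a2 was not called (adjusted p = 0.113).

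**Figure D1:**
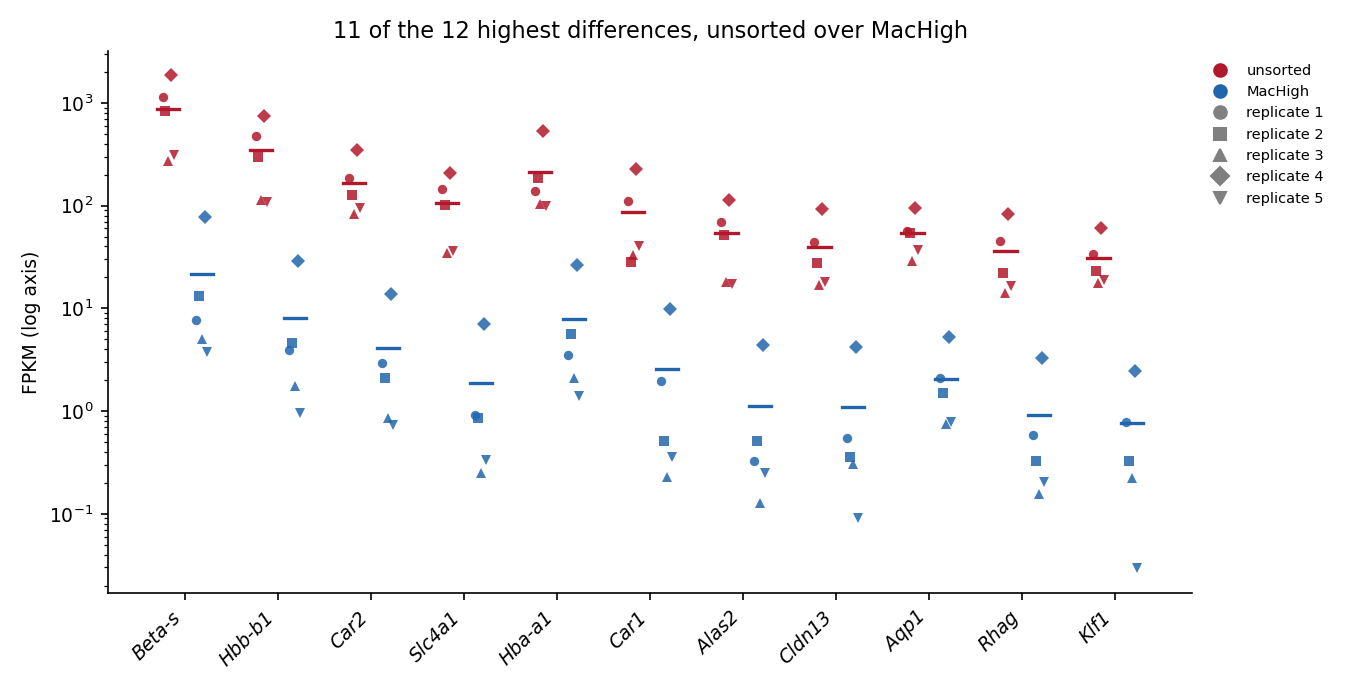
FPKM of 11 of the 12 genes with the highest log2 differences in each library, on a log axis; red marks are unsorted and blue marks MacHigh libraries, the shape gives the replicate and the short line the mean of 5. Genes whose groups overlapped were left out by the choice of genes; replicate 4 (diamond) is the highest library of each group for each gene.

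Further genes of the top 12 serve gas transport, the red cell membrane and heme. Car2 (chr3:14886269-14900770) and Car1, carbonic anhydrases of the red cell, differed by 5.36 and 4.73. Slc4a1 (chr11:102348820-102365281), the band 3 anion exchanger, had 144, 102, 34.6, 210 and 36.2 FPKM in unsorted cells, against 0.921, 0.852, 0.251, 7.001 and 0.336 FPKM in MacHigh cells. It thus lay under 1 FPKM in 4 of the 5 MacHigh libraries, and the difference was 5.28 ± 0.50 (adjusted p = 9.29e-08). Aqp1, the water channel, averaged 54.2 ± 25.9 FPKM in unsorted cells and 2.07 ± 1.84 FPKM in MacHigh cells. Rhag, the Rh-associated glycoprotein, averaged 36.5 ± 29.2 FPKM in unsorted cells and 0.916 ± 1.35 FPKM in MacHigh cells. Alas2 (chrX:150547417-150570622), the erythroid enzyme of the first step of heme synthesis, averaged 53.8 ± 39.9 FPKM in unsorted cells and 1.12 ± 1.84 FPKM in MacHigh cells (4.64 ± 0.45). Klf1 (chr8:84901982-84905291), the transcription factor that activates adult beta globin, averaged 30.8 ± 17.9 FPKM in unsorted cells and 0.762 ± 0.98 FPKM in MacHigh cells (4.17 ± 0.35).

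The upstream sequences of these genes were searched for the letters that erythroid factors are known to read: AGATAA or TGATAA for GATA factors and CACCC for Klf1, each on both strands, in the 250 bases before the start site. Promoters are shown for 4 of the 12 highest genes, those whose symbol in the deposited table matched the sequence table with a window that stops at the annotated start; the other 8 are not shown (RefSeq, GRCm38.p6, plus strand, 5′ to 3′). Capitals mark the motifs, also where they lie on the other strand. They are Hba-a1 at chr11:32283422-32283671, Alas2 at chrX:150547167-150547416, Aqp1 at chr6:55336049-55336298 and Klf1 at chr8:84901732-84901981.
Hba-a1: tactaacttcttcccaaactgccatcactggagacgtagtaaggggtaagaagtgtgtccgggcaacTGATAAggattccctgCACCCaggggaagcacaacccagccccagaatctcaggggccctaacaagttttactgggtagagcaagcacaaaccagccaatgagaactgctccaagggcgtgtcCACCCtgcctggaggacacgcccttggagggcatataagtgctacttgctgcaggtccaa
Alas2: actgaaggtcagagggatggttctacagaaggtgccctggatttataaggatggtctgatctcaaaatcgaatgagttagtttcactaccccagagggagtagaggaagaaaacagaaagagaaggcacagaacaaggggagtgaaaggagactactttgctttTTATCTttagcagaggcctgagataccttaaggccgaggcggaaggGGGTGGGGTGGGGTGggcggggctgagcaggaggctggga
Aqp1: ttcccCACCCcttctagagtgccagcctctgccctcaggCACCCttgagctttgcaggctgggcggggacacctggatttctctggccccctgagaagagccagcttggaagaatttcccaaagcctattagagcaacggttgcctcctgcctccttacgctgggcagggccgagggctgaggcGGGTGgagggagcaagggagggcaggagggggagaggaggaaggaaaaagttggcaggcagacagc
Klf1: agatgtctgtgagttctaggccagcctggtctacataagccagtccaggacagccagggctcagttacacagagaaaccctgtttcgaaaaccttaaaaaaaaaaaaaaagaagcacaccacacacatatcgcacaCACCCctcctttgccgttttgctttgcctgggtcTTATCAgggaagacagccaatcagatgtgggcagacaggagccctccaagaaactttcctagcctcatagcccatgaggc
Hba-a1, Alas2 and Klf1 held 1 GATA motif each, and Aqp1 held 0; the CACCC motif occurred 2, 3, 3 and 1 times; no motif overlapped another. Over the erythroid list, 15 of 31 promoters held a GATA motif (48.4%) and 13 held both motifs (41.9%), against 16.6% and 7.11% of all 32851 promoters. These 31 promoters belong to 27 genes and the 32851 to 27025 genes, and promoters of the same gene were counted separately. The GATA motif stood in 14.3% of the promoters of the heme list, 8.82% of those of the monocyte and macrophage list, 6.25% of those of the primary granule list and 5% of those of the DNA replication list. The CACCC motif alone did not set the erythroid list apart: it stood in 67.7% of its promoters, in 75% of those of the heme and of the primary granule list, in 65% of those of the DNA replication list, in 47.1% of those of the monocyte list and in 52% of all promoters. A match is a description of letters in this window and not of binding.

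The erythroid list as a whole had 47 names, of which 43 were in the table and 41 were tested. Of these 41, 39 rose in unsorted cells and 0 fell, with a median difference of 3.23 and no overlap of the groups in 36 (14.5% of all rows tested lay higher without overlap). The filter on low values kept 24 of the 41 on the other groups alone, and 23 of those 24 rose; the other members passed only with the unsorted libraries counted, so they had to be high there. Its regulators and membrane proteins are described in turn. Gata1 averaged 18 ± 12.6 FPKM in unsorted cells and 0.6 ± 0.646 FPKM in MacHigh cells (3.44), Tal1 averaged 14.9 ± 7.82 FPKM in unsorted cells and 0.49 ± 0.625 FPKM in MacHigh cells (3.38), and the erythropoietin receptor Epor differed by 3.11. Sptb and Ank1, a spectrin chain and ankyrin of the membrane skeleton, differed by 3.13 and 3.26. The blood group genes Rhd, Kel and Ermap differed by 4.02, 3.84 and 4.07, and Rhd had the lowest adjusted p of the list (8.65e-10). Some members differed less: Nfe2, a factor of erythroid and other blood cells, averaged 113 ± 3.04 FPKM in unsorted cells and 84.3 ± 18.1 FPKM in MacHigh cells (0.45), and Epb4.1 differed by 0.53. Tmod1 was not called (0.09, adjusted p = 0.827).

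Summed over its 43 genes, the erythroid list reached 3249, 2391, 1214, 5678 and 1343 FPKM in unsorted replicates 1 to 5, against 291, 217, 258, 457 and 203 FPKM in MacHigh replicates 1 to 5. The unsorted libraries thus differed among themselves by more than 4-fold, and none overlapped with MacHigh. In bulk libraries, fewer cells of a type and less RNA per cell cannot be told apart. Replicate 4 had the highest sum in both groups; without it in the unsorted group, and in each of the other fits that left out a library, 37 to 40 members were higher.

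**Figure D2:**
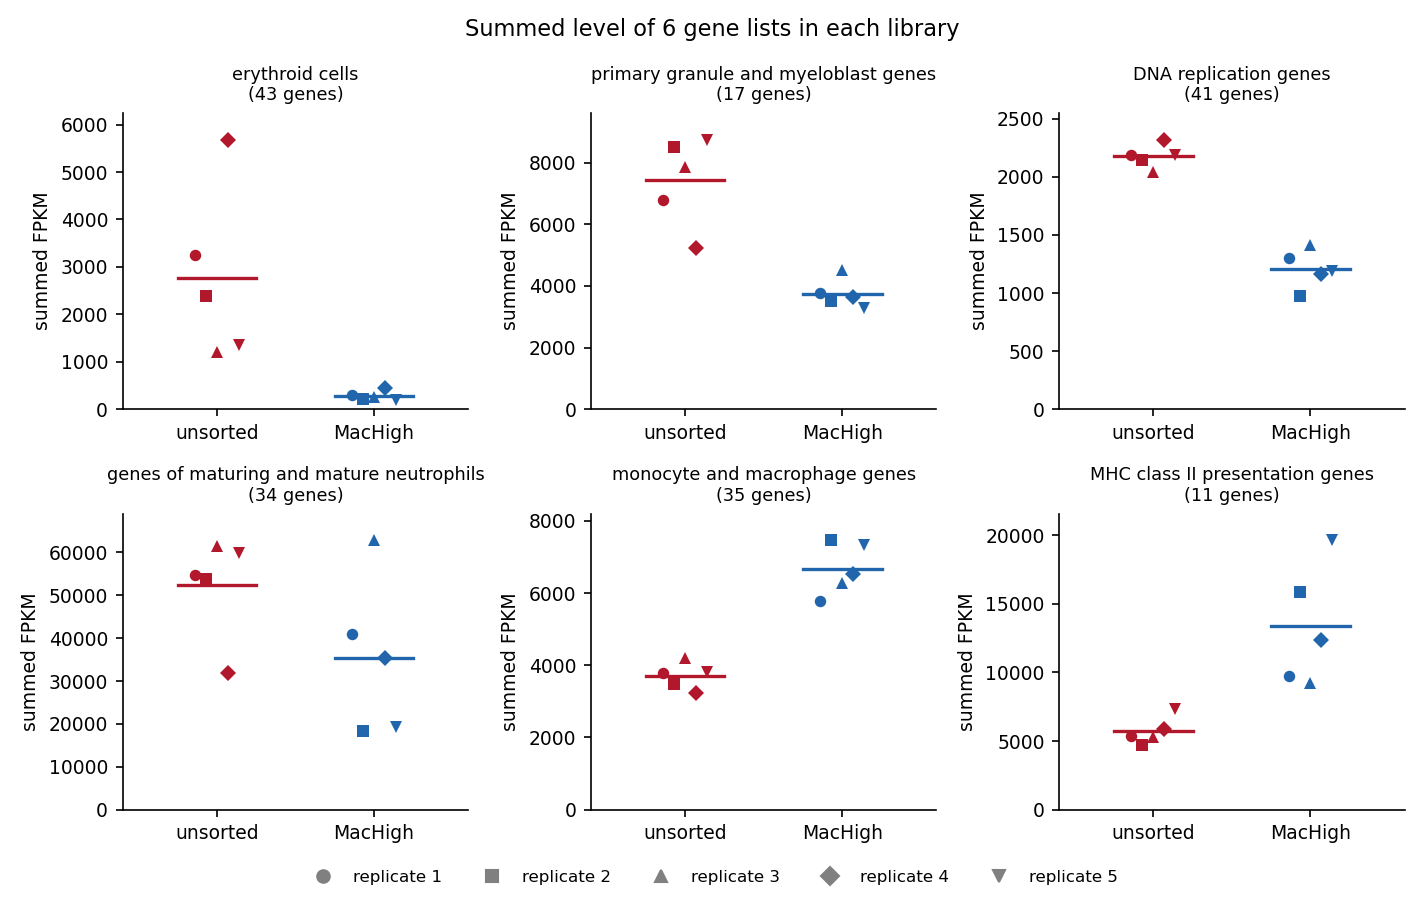
Summed FPKM of 6 gene lists in each library (linear axes from 0); red marks are unsorted and blue marks MacHigh libraries, shapes give the replicate and lines the means. Erythroid, primary granule and DNA replication sums are higher in every unsorted library, monocyte and MHC class II sums are lower, and neutrophil sums overlap.

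Heme synthesis and iron import, a list that all cells use to some degree, had 18 of 24 members higher and 2 lower in unsorted cells, with a median of 0.94. Besides Alas2 they included Alad (2.45), the enzyme of the second step, the transferrin receptor Tfrc (2.10), and Cpox (1.99), a later enzyme of the pathway. Alad had 28.1, 25.8, 15.4, 53.6 and 20.0 FPKM in unsorted cells, against 3.04, 3.95, 3.36, 5.44 and 4.34 FPKM in MacHigh cells, so even the lowest unsorted library was above the highest MacHigh one. Slc25a37, mitoferrin, averaged 63.3 ± 22.5 FPKM in unsorted cells and 23.4 ± 4.82 FPKM in MacHigh cells. The ubiquitous first enzyme Alas1 rose by 0.63 (adjusted p = 0.0383). Both members that fell store iron: the ferritin chains Fth1 (-0.55) and Ftl1 (-0.63). With equal FPKM sums no member was lower.

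Platelet genes moved the same way at low levels. The megakaryocyte list had 9 of 14 tested members higher and 0 lower (median 0.75); 7 of its 21 genes stayed under the filter. On the other groups alone 12 members passed the filter, and 7 of those 12 were higher. Ppbp averaged 13.8 ± 7.87 FPKM in unsorted cells and 1.93 ± 1.35 FPKM in MacHigh cells (2.23), and Gp5, a chain of the platelet receptor for von Willebrand factor, averaged 4.43 ± 4.23 FPKM in unsorted cells and 0.248 ± 0.232 FPKM in MacHigh cells (1.81). Pf4 averaged 40 ± 23.1 FPKM in unsorted cells and 25.8 ± 12.5 FPKM in MacHigh cells, with overlap (adjusted p = 0.39). Summed over 21 genes the list reached 72.4 to 248 FPKM in unsorted cells and 79.5 to 139 FPKM in MacHigh cells, so the sums overlapped. With a filter on a mean of 5 FPKM, which leaves fewer genes, 0 members were higher, and with the name prefix of the libraries as a block 2 were lower.

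Genes of immature granulocytic cells formed another group that was higher before sorting. The primary granule is the first granule made by promyelocytes and holds myeloperoxidase and serine proteases. Of 17 tested genes of this list, 11 rose in unsorted cells and 0 fell (median 1.15). Mpo (chr11:87793784-87804412), myeloperoxidase, had 904, 1260, 1105, 630 and 1326 FPKM in unsorted cells, against 114, 114, 148, 113 and 64.4 FPKM in MacHigh cells (3.23 ± 0.33, adjusted p = 1.25e-06). The groups were far apart, and unsorted replicate 4, the library with the most erythroid RNA, was the lowest of its group. The proteases Elane, Ctsg and Prtn3 differed by 2.57, 2.30 and 2.14, and the protease-like Prss57 by 1.63. Gfi1, a repressor needed for granulocyte development, averaged 33.9 ± 8.23 FPKM in unsorted cells and 13.7 ± 5.8 FPKM in MacHigh cells (1.29). Cebpe, which drives the later granules, was not called (0.72, adjusted p = 0.108). Summed over 17 genes, the list reached 5234 to 8735 FPKM in unsorted cells and 3292 to 4528 FPKM in MacHigh cells.

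Genes of mature neutrophils gave counts that moved with the fit. Of 34 tested genes of that list 1 rose and 3 fell, both shares below the background, and the median was 0.32. Camp, cathelicidin of the secondary granule, had 5965, 5127, 5208, 3463 and 6305 FPKM in unsorted cells, against 4082, 1161, 5984, 3594 and 1616 FPKM in MacHigh cells. MacHigh replicates 2 and 5 were low and the groups overlapped (0.88, adjusted p = 0.143). Ltf, Ngp and S100a8 averaged 1834 ± 478, 6917 ± 1320 and 30988 ± 8682 FPKM in unsorted cells and 1248 ± 544, 5129 ± 2636 and 19533 ± 11615 FPKM in MacHigh cells, and none was called. With the name prefix as a block 9 members were lower in place of 3, and without MacHigh replicate 3 there were 4 higher in place of 1; without MacHigh replicate 4 or unsorted replicate 4, 2 were higher. With equal FPKM sums 6 were higher, and with library weights 11 were higher and 7 lower, so no direction is given for the list.

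Most stem and progenitor genes that could be tested were also higher. The list had 28 genes and 16 were tested, 11 of them higher and 1 lower in unsorted cells (median 0.85). Summed over 28 genes, the list reached 753.5 to 893.6 FPKM in unsorted cells and 689.2 to 1150 FPKM in MacHigh cells, so the sums overlapped. On the other groups alone 15 passed the filter, 10 of them higher, and the 11 include Tal1, which is also on the erythroid list. Besides Kit, the sialomucin Cd34 averaged 26.4 ± 4.68 FPKM in unsorted cells and 12.4 ± 2.95 FPKM in MacHigh cells (1.04), and Egfl7 differed by 2.06, Angpt1 by 1.86 and Gata2 by 1.11. A list of self-renewal and MLL-fusion genes had 5 members higher and 4 lower of 22, shares near those over all rows tested (18.2% and 21.3%), so the members named next do not speak for the list. Myb (chr10:21124930-21160984), a transcription factor of blood progenitors, had 69.3, 74.6, 78.0, 52.8 and 73.9 FPKM in unsorted cells, against 24.4, 18.7, 29.9, 21.0 and 13.5 FPKM in MacHigh cells (1.68 ± 0.18, adjusted p = 7.27e-07). Sox4 differed by 1.49. Meis1, a target of MLL fusions, went the other way, with 5.29 ± 0.222 FPKM in unsorted cells and 7.75 ± 1.32 FPKM in MacHigh cells (-0.47, adjusted p = 0.00986), as did Mef2c (-0.61) and Cebpa (-0.48). Hoxa9 and Flt3 were not called (0.06 and -0.28). With equal FPKM sums none of the 22 was lower, so Meis1, Mef2c, Jmjd1c and Cebpa were not called on that scale.

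DNA replication was the one list of more than 3 genes with every tested member called. Of 41 DNA replication genes, 41 rose in unsorted cells, 40 of them without overlap (14.5% of all rows tested lay higher without overlap), with a median of 0.82. Under each of the 25 alternative fits the count was again 41. Orc1, of the origin recognition complex, averaged 8.64 ± 1.84 FPKM in unsorted cells and 2.8 ± 0.466 FPKM in MacHigh cells (1.34). Mcm2 (chr6:88883474-88898780), a subunit of the replicative helicase, had 88.0, 87.9, 76.2, 99.4 and 84.7 FPKM in unsorted cells, against 41.7, 33.6, 44.6, 40.3 and 38.9 FPKM in MacHigh cells (1.11 ± 0.11, adjusted p = 2.27e-07). Spread within each group was small beside the gap. Cdc6 differed by 1.20 and Uhrf1 by 0.93. Mitotic genes rose in 31 of 37 cases with 0 lower (median 0.48); Mki67, a marker of cycling cells, averaged 148 ± 11.3 FPKM in unsorted cells and 94.4 ± 24.8 FPKM in MacHigh cells (0.68). Without MacHigh replicate 2, the MacHigh library with the lowest sum over these genes, 19 mitotic genes were called.

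Growth genes outside the cell cycle moved in part. Of 31 Myc targets and ribosome biogenesis genes, 22 rose and 0 fell (median 0.55), with 13 called without unsorted replicate 4. Hspd1, a mitochondrial chaperonin, and Srm, spermidine synthase, both differed by 1.13, the nucleolar proteins Nolc1 and Dkc1 by 0.88 and 0.95, and Myc itself by 0.61 (adjusted p = 0.0303). Cytosolic ribosomal protein genes were not called in 77 of 78 cases; the exception was Rps9 (-0.29, adjusted p = 0.0446), lost in 8 of the 10 fits that left out a library. Their median of -0.06 was 0.11 with equal FPKM sums and 0.01 after quantile normalization, so no direction is given. Oxidative phosphorylation genes were called in 8 of 36 cases, all higher (median 0.18), a share near the background of 18.2%; with the prefix block 13 were higher, and 20 with equal sums. Slc16a1, a lactate carrier, differed by 1.78 and Slc2a1, a glucose transporter, by -0.74. The 23 glycolysis genes had 3 higher and 4 lower, shares not above those over all rows tested (18.2% and 21.3%). These carriers thus do not speak for the list.

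**Figure D3:**
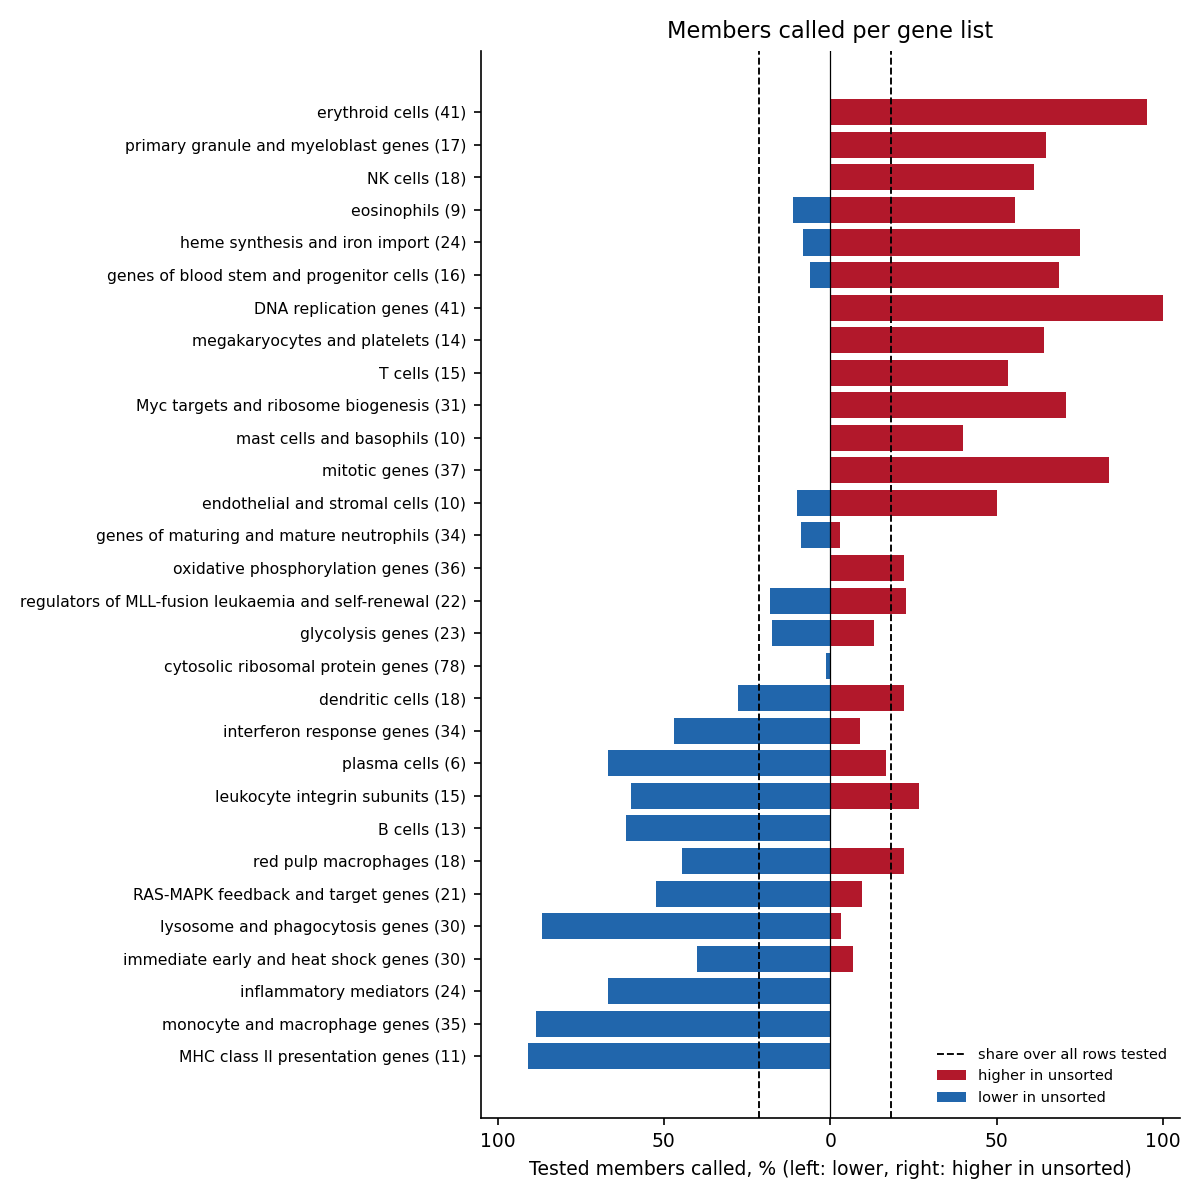
Share of tested members of each gene list that were called higher (red, right) or lower (blue, left) in unsorted cells at an adjusted p under 0.05, lists ordered by median difference, with the number tested in brackets. Dashed lines mark the shares over all rows tested, 18.2% higher and 21.3% lower; every DNA replication gene lies on the right and 10 of 11 MHC class II genes on the left.

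On the lower side stood genes of monocytes and macrophages. Of 35 tested genes of this list, 31 fell in unsorted cells and 0 rose, with a median of -1.12 and no overlap in 27 (17.2% of all rows tested lay lower without overlap). Csf1r, the receptor of macrophage colony-stimulating factor, had 144, 152, 159, 133 and 148 FPKM in unsorted cells, against 267, 468, 314, 367 and 422 FPKM in MacHigh cells (-1.29 ± 0.23, adjusted p = 0.000163). Ccr2, through which monocytes leave the marrow, averaged 99.7 ± 13.4 FPKM in unsorted cells and 218 ± 27.8 FPKM in MacHigh cells (-1.12). Cx3cr1, the fractalkine receptor, differed by -1.36 and Cd14, the co-receptor for lipopolysaccharide, by -1.27. MacHigh cells had the highest mean of all 5 groups in 30 of the 35 genes, and in 25.2% of all rows tested. Ly6c2, an antigen of inflammatory monocytes, was the one tested member with a positive difference (0.47, adjusted p = 0.142), and it and 3 others were not called.

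The 12 lowest differences ran from -1.74 to -1.50, much smaller in size than those at the top. These genes too were chosen among those whose groups did not overlap. Slamf9, a SLAM family receptor, had 21.6, 12.6, 16.3, 26.7 and 17.6 FPKM in unsorted cells, against 55.0, 58.9, 40.4, 94.4 and 86.8 FPKM in MacHigh cells (-1.74 ± 0.29, adjusted p = 8.51e-05). Pltp, the phospholipid transfer protein, averaged 80.2 ± 18.4 FPKM in unsorted cells and 265 ± 70.5 FPKM in MacHigh cells (-1.70). Tnip3, a binding partner of the NF-kB inhibitor A20, differed by -1.73 and Cmklr1, the receptor of chemerin, by -1.61. Clec4a1, Clec4a3, Clec4b1 and Clec4n (Dectin-2), C-type lectins of myeloid cells, lie beside each other on chromosome 6 from 122921848 to 123247024 and differed by -1.60, -1.50, -1.60 and -1.57. Their neighbours Clec4d and Clec4e (chr6:123281789-123289871), listed with neutrophil genes, differed by -1.13 and -1.05. Some of these lectins are close copies, so fragments may be split between them. Clec10a, Dab2, Dpep2 and Ndnf made up the 12, with differences of -1.52, -1.60, -1.55 and -1.58.

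**Figure D4:**
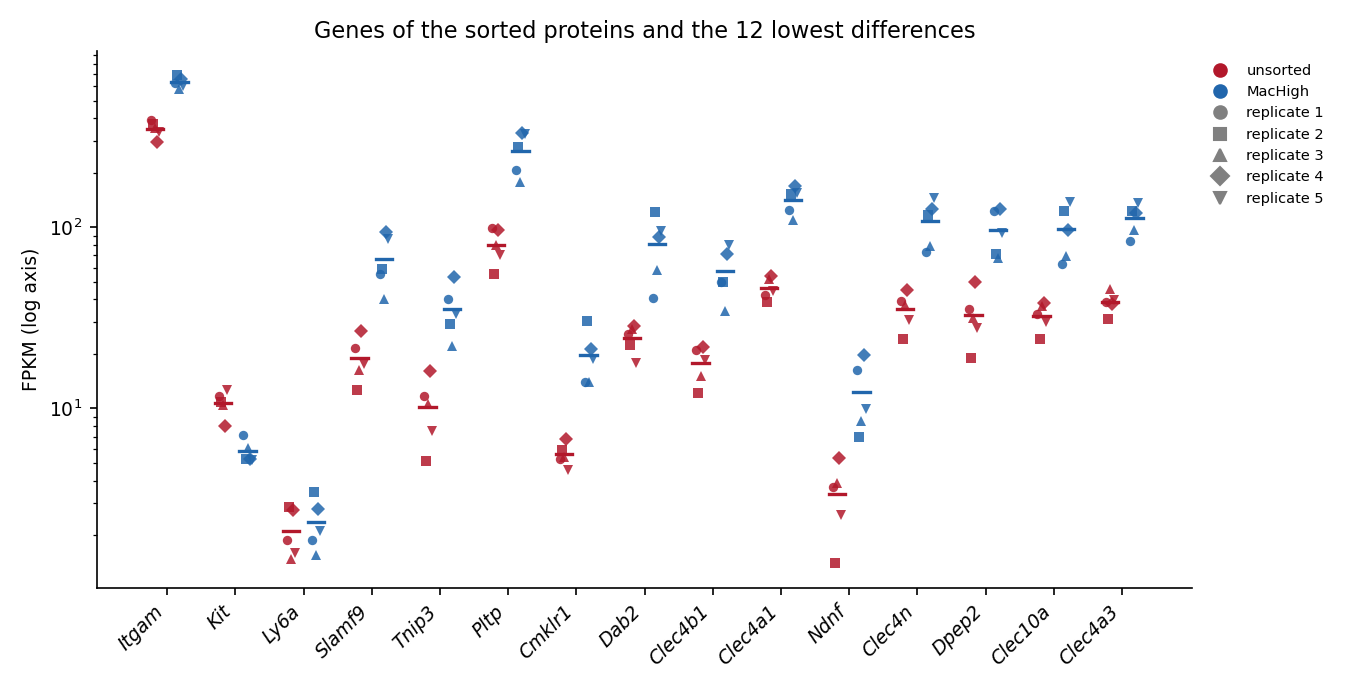
FPKM in each library, on a log axis, of the genes of the 3 sorted proteins (left) and of the 12 genes with the lowest log2 differences; red marks are unsorted and blue marks MacHigh libraries, shapes give the replicate and lines the means. Ly6a overlaps between the groups, Kit is higher in unsorted cells, and Itgam and the other genes are lower without overlap. For the 12 lowest genes the lack of overlap was a condition of their choice.

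Antigen presentation and lysosomal genes were lower along with them. Of 11 genes of MHC class II presentation, 10 fell in unsorted cells (median -1.12). Ciita, the master activator of these genes, averaged 24.9 ± 4.29 FPKM in unsorted cells and 57.9 ± 22.9 FPKM in MacHigh cells (-1.12). Cd74, the invariant chain, had 2677, 2328, 2580, 2886 and 3561 FPKM in unsorted cells, against 5016, 8081, 4695, 6244 and 10128 FPKM in MacHigh cells (-1.24, adjusted p = 0.016). MacHigh replicates 2 and 5 were the highest, and 6 and 5 genes of the list were called without each of them; 6 were called without unsorted replicate 1 and 6 without unsorted replicate 2. Lysosome genes fell in 26 of 30 cases and rose in 1 (median -0.69), with 17 lower at equal FPKM sums. Asah1, acid ceramidase, averaged 91.5 ± 7.66 FPKM in unsorted cells and 166 ± 14.3 FPKM in MacHigh cells (-0.85, adjusted p = 4.81e-07), and the hydrolase Ctsa and the cholesterol exporter Npc1 differed by -0.91 and -0.76. Cd63 was the exception, with a difference of 1.04.

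Inflammatory mediators fell in 16 of 24 tested cases with 0 higher (median -0.88). Nlrp3, the inflammasome sensor, had 18.7, 17.4, 19.8, 19.9 and 19.4 FPKM in unsorted cells, against 42.5, 43.8, 33.2, 38.7 and 43.9 FPKM in MacHigh cells (-1.04 ± 0.16, adjusted p = 5.21e-05). Cd40 differed by -1.33, the adhesion molecule Icam1 by -1.04, and the chemokines Ccl2 and Ccl6 by -1.43 and -1.39. Il1b, at 8.18 ± 2.1 FPKM in unsorted cells and 17.7 ± 4.64 FPKM in MacHigh cells, was just outside the threshold (adjusted p = 0.0529).

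Genes that report RAS-MAPK signalling were lower in unsorted cells in 11 of 21 cases and higher in 2 (median -0.68). Dusp6, the phosphatase that ERK induces against itself, averaged 80.7 ± 14.2 FPKM in unsorted cells and 176 ± 47.1 FPKM in MacHigh cells (-1.10, adjusted p = 0.000135). The ETS factor Etv5 and the phosphatase Dusp5 differed by -0.99 and -0.83. Spry2, a feedback inhibitor, and Myc were the 2 that rose; without MacHigh replicate 5 there were 0, and 1 without MacHigh replicate 3 or unsorted replicate 1, 3 or 4. Immediate early and heat shock genes fell in 12 of 30 cases and rose in 2 (median -0.70). For both lists, the shares over all rows tested were 21.3% lower and 18.2% higher. Egr2 and Junb differed by -1.14 and -1.09, while the chaperone Hsp90aa1 averaged 61.5 ± 7.34 FPKM in unsorted cells and 29.9 ± 3.8 FPKM in MacHigh cells (1.02). With the prefix block 20 were lower, with equal FPKM sums 7, and 7 without MacHigh replicate 5 or unsorted replicate 2. Fos was not called (-1.05, adjusted p = 0.206); it varied from 13.2 to 96.6 FPKM among unsorted and from 33.8 to 214 FPKM among MacHigh libraries. MacHigh cells went through a sorter and unsorted cells did not, and this cannot be told apart from the Mac-1 level.

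Interferon response genes fell in 16 of 34 cases and rose in 3 (median -0.40). The share that rose was below that over all rows tested (18.2%), and the share that fell was above it (21.3%). Xaf1 differed by -0.82 and Dhx58, a cytosolic sensor of viral RNA, by -0.63, whereas Isg20, an RNA exonuclease, averaged 22.2 ± 10.6 FPKM in unsorted cells and 5.87 ± 0.634 FPKM in MacHigh cells (1.65) and Rsad2 differed by 1.34. The count of lower members was 4 with equal FPKM sums, 8 without MacHigh replicate 2 and 10 without unsorted replicate 4 or 5. Integrins split as well: 9 of 15 subunits fell, among them Itgb2, the beta chain of Mac-1 (-0.65), and Itgax (-1.17). The 4 that rose were Itga2b (1.37) and Itgb3 (0.99), the platelet integrin chains, Itgae (0.69) and Itgad (0.82).

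NK cell genes rose in 11 of 18 tested cases with 0 lower (median 1.14). Il2rb, a chain of the interleukin 2 and 15 receptors, had 6.68, 8.74, 6.54, 5.68 and 7.52 FPKM in unsorted cells, against 0.933, 0.327, 0.279, 0.582 and 0.372 FPKM in MacHigh cells (2.43 ± 0.23, adjusted p = 8.55e-08). Ncr1, the NKp46 receptor, averaged 4.75 ± 1.76 FPKM in unsorted cells and 0.154 ± 0.0527 FPKM in MacHigh cells (2.27), and the cytotoxic granule genes Gzma and Prf1 differed by 3.20 and 1.62. The sum of the 23 genes was 122 to 213 FPKM in unsorted cells and 53.8 to 84.1 FPKM in MacHigh cells; it includes Nkg7, which is also on the primary granule list. Genes of T cells rose in 8 of 15 cases (median 0.56), and Lck, the kinase of the T cell receptor, averaged 2.52 ± 0.183 FPKM in unsorted cells and 0.278 ± 0.135 FPKM in MacHigh cells (1.47). The receptor chain Cd3d averaged 9 ± 1.89 FPKM in unsorted cells and 3.47 ± 2.09 FPKM in MacHigh cells (1.29, adjusted p = 0.0134), and the adaptor Lat differed by 1.32 with overlap. Another chain, Cd3e, stayed at or under 0.0901 FPKM in the unsorted libraries and 0.0474 FPKM in the MacHigh libraries.

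The B cell genes that could be tested went down: 8 of 13 fell in unsorted cells and 0 rose (median -0.61). Over all rows tested 21.3% were lower. The other 12 of the 25 B cell genes in the data stayed under the filter. Only 4 or 5 were called without MacHigh replicate 2, 3 or 5 or without unsorted replicate 2 or 4. With equal FPKM sums 4 fell. Among the members that fell were Fcer2a, the low-affinity IgE receptor (-1.18), and the inhibitory receptor Cd72 (-1.05). Pax5, which defines the lineage, was listed at 0.001 in all 10 libraries. Plasma cell genes had 4 lower and 1 higher of 6 tested, with Irf4 at -1.39, and 4 of the 10 listed were under the filter. B cells also use MHC class II genes, and the part of B cell RNA in the lower MHC class II values was not tested.

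Markers of other resident cells were mixed. Red pulp macrophage genes had 4 higher and 8 lower of 18 (5 lower with equal FPKM sums). Their share of higher genes was near that over all rows tested (18.2%). Vcam1 and Cd5l, an adhesion molecule and a secreted macrophage protein, rose by 1.62 and 1.26. Hmox1, heme oxygenase, averaged 193 ± 39.7 FPKM in unsorted cells and 467 ± 134 FPKM in MacHigh cells (-1.23). Spic, the factor that defines red pulp macrophages, averaged 8.45 ± 1.17 FPKM in unsorted cells and 9.22 ± 3.35 FPKM in MacHigh cells and was not called. Dendritic cell genes had 4 higher and 5 lower of 18, shares near those over all rows tested (18.2% and 21.3%). There were 2 higher without MacHigh replicate 1, 3 or 5 or unsorted replicate 3 or 5, and 3 lower without MacHigh replicate 2 or 5. Of the mast cell and basophil list 4 of 10 tested members rose (18.2% of all rows tested), and 7 of its 17 genes stayed under the filter. Ms4a3 led them (1.82), and it is also a primary granule gene. Eosinophil genes rose in 5 of 9 tested cases (18.2% of all rows tested) and fell in 1, with 2 of 11 genes under the filter. There were 3 higher without MacHigh replicate 2, 4 or 5 or unsorted replicate 3 or 5. Epx, eosinophil peroxidase, differed by 1.94 with overlap. Prg2, the most abundant member, was just inside the threshold (1.18, limma adjusted p = 0.0499) and lost its call in several alternative fits. Endothelial and stromal genes had 5 higher and 1 lower of 10 tested, with 20 of 30 under the filter. Plvap, of fenestrated endothelium, averaged 3.05 ± 1.45 FPKM in unsorted cells and 0.742 ± 0.378 FPKM in MacHigh cells (1.19), and Igfbp7, Sparc and Eng differed by 1.46, 1.22 and 0.58. Unsorted replicate 2 was the highest library of its group for these 4 genes. The 2 most abundant members did not rise. Vim averaged 1263 ± 149 FPKM in unsorted cells and 1918 ± 180 FPKM in MacHigh cells, without overlap (-0.60, limma adjusted p = 0.00692). Pecam1 averaged 23.7 ± 2.45 FPKM in unsorted cells and 24.3 ± 3.75 FPKM in MacHigh cells and was not called (-0.03). Under the filter, the endothelial cadherin Cdh5 averaged 0.711 ± 0.367 FPKM in unsorted cells and 0.506 ± 0.11 FPKM in MacHigh cells, and the collagen Col1a1 0.321 ± 0.0632 FPKM in unsorted cells and 0.172 ± 0.0833 FPKM in MacHigh cells.

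**Figure D5:**
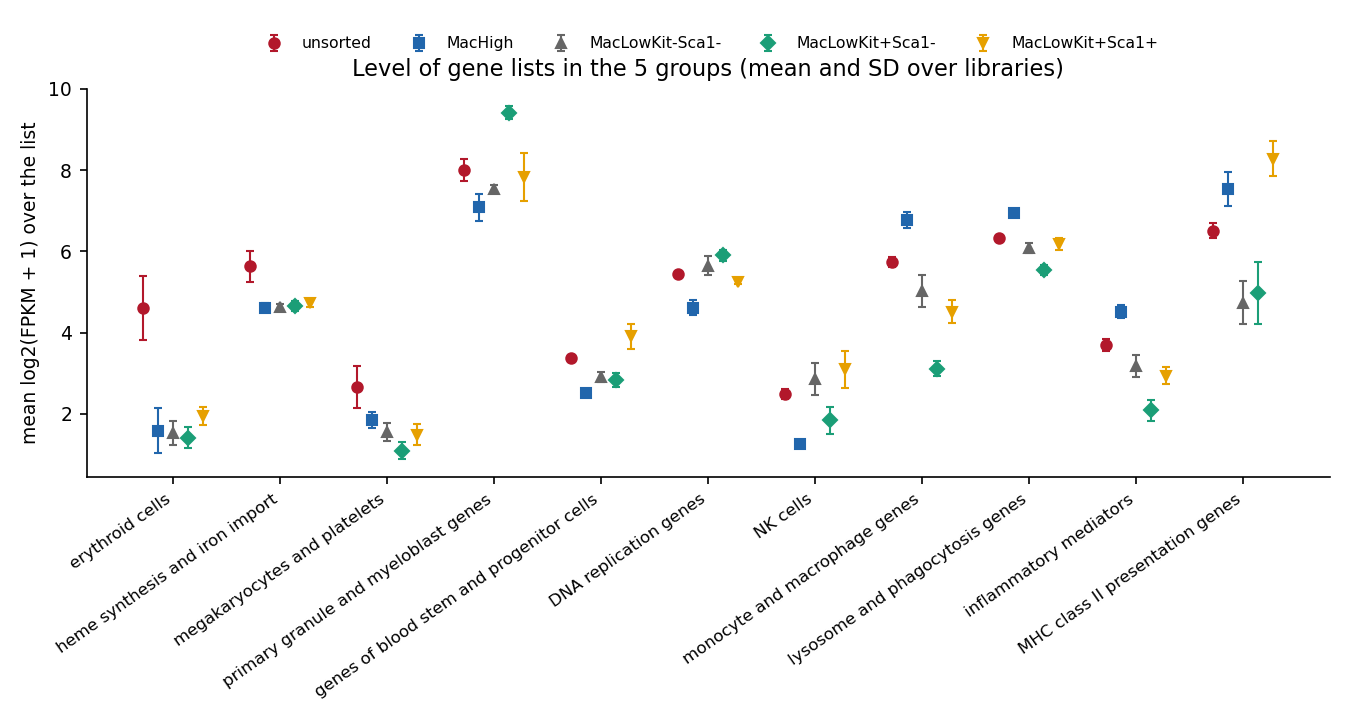
Mean log2(FPKM + 1) over the tested genes of 11 lists in each of the 5 groups, with the SD over the libraries of a group (n = 5, and 4 in MacLowKit+Sca1+). Only genes with an estimate in every group were averaged, which leaves 13 of 17 primary granule genes, without Mpo and Elane. Erythroid, heme and megakaryocyte levels are highest in unsorted cells, monocyte, lysosome and inflammation levels in MacHigh cells, and replication and NK levels in MacHigh cells are the lowest of the 5 groups.

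The other 3 sorted groups place these differences. Averaged over 41 erythroid genes, log2(FPKM + 1) was 4.61 ± 0.787 in unsorted cells and 1.58 ± 0.555 in MacHigh cells, and 1.52, 1.42 and 1.93 in the MacLow groups sorted as Kit-Sca1-, Kit+Sca1- and Kit+Sca1+. Of these 41 genes, 17 passed the filter only with the unsorted libraries counted, which raises the unsorted level, so these levels are a description. The 85 genes called with a difference of 2 or more were chosen for being higher than in MacHigh cells. Unsorted cells had the highest mean of the 5 groups in 69 of them (81.2%, and 3.69% of all rows tested). Some of the 85 passed the filter only with the unsorted libraries counted and had to be high there, so this count too is a description. Primary granule genes had another order: over 13 genes with an estimate in every group the level was 7.997 ± 0.271 in unsorted cells, 7.09 ± 0.335 in MacHigh cells and 9.42 ± 0.149 in MacLowKit+Sca1- cells. Replication genes averaged 5.44 ± 0.0512 in unsorted cells and 4.61 ± 0.186 in MacHigh cells, with 5.25 to 5.90 in the MacLow groups. NK cell genes averaged 2.49 ± 0.126 in unsorted cells and 1.25 ± 0.0771 in MacHigh cells, and 2.85 and 3.10 in MacLowKit-Sca1- and MacLowKit+Sca1+ cells. The 241 genes called at -1 or less were chosen for being higher in MacHigh than in unsorted cells; MacHigh cells were the highest of the 5 groups in 214 of them (88.8%, and 25.2% of all rows tested) and MacLowKit+Sca1- cells the lowest in 213 (88.4%, and 27.2% of all rows tested).

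MHC class II genes were not highest in MacHigh cells. Over 11 genes the level was 6.51 ± 0.176 in unsorted cells and 7.54 ± 0.415 in MacHigh cells, with 8.28 ± 0.424 in MacLowKit+Sca1+ cells. Monocyte genes had 5.74 ± 0.129 in unsorted cells and 6.77 ± 0.194 in MacHigh cells, and at most 5.02 in a MacLow group.

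Of the 85 genes with a difference of 2 or more, 43 were on no list. Named after their values were seen, several of these serve red cells. Pklr, the red cell and liver pyruvate kinase, averaged 17.3 ± 11.3 FPKM in unsorted cells and 0.41 ± 0.63 FPKM in MacHigh cells (3.60), and Zfpm1, the partner of Gata1 also called FOG1, averaged 21.1 ± 13.8 FPKM in unsorted cells and 2.12 ± 0.714 FPKM in MacHigh cells (2.66). Slc43a1, an amino acid carrier, differed by 3.51. The embryonic globin Hbb-y had 44.2, 0.393, 2.50, 56.9 and 1.90 FPKM in unsorted cells, against 0.143, 0.001, 0.0933, 2.83 and 0.001 FPKM in MacHigh cells. Unsorted replicates 1 and 4 were far above the other libraries, and the groups overlapped (2.58, adjusted p = 0.00844).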

How the data were processed

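RNA of 24 libraries was sequenced by the submitters. The deposited table gives FPKM per gene, which the authors made, per the submitters' processing notes, with TopHat2 2.0.4 and Cuffdiff on mm10; the annotation is not given in the sources used here. The values were tested on the log2(FPKM + 1) scale with limma 3.58.1 in R 4.3.3 over all 24 libraries and 5 groups, with a variance trend, as unsorted minus MacHigh. The filter asked for 1 FPKM in 4 libraries, which 11599 of 23361 rows passed; 11596 had values in both groups. Adjusted p-values are limma's with Benjamini-Hochberg adjustment over all rows tested, and a call is an adjusted p under 0.05. An SE is limma's; other errors are SDs over libraries. Fold changes on this scale understate the change of low genes. A value of 0.001 in every library of a group, with 5 FPKM or more in every library of another, counted as missing.

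Replicate numbers follow the labels. Sample names share a prefix in 4 of the 5 libraries of each group, and libraries with the same prefix deviated together from their group means (correlations of 0.292, 0.345, 0.209 and 0.174, against a mean of -0.0484 over the other 21 pairs), so they were treated as pairs in an alternative fit with the prefix as a block. The labels do not say what a prefix marks.

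Gene lists, tests and the comparison were chosen with earlier results of these data known, and the lists are described by counts and medians only. The genes named by rule were the 3 sorted markers, the 12 highest and 12 lowest differences among called genes without overlap and with 5 FPKM or more in the higher group (small RNAs and unnamed models left out), and from each list up to 4 called members with the largest moderated t, with the 2 most abundant members of cell type lists. Further list members were named after their values were seen. A few members of these sets are not reported here. Positions and promoters are from RefSeq, GRCm38.p6, matched by symbol. Every value column of the table matched a sample. The test was checked on simulated data. Alternatives changed the pseudocount, filter, scaling, libraries, block, variance model and each single library.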

Additional observations from a re-analysis of the deposited data

Results flagged for a closer look

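Among 306 sets of 5 libraries (each named gene in each group), 20 had 1 library whose gap to the nearest other was over 0.71 of the range, where chance gives about 15.3. In 9 of them MacHigh replicate 4 was high. It had 7.001 FPKM of Slc4a1, 4.42 FPKM of Alas2, 4.21 FPKM of Cldn13, 3.32 FPKM of Rhag, 2.48 FPKM of Rhd and 1.59 FPKM of Tal1. It also had 2.02 FPKM of Igfbp7, 0.263 FPKM of Cd247 and 0.204 FPKM of Tspan8.

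Unsorted replicate 4 was high for Gp9 (5.23 FPKM), Orc1 (11.9 FPKM) and Slc2a1 (26.9 FPKM). The remaining unsorted libraries that stood apart were replicate 3 for Clec4d (25.3 FPKM, high), replicate 5 for Itgax (46.2 FPKM, high), replicate 2 for Plvap (5.63 FPKM, high) and replicate 1 for Icam1 (26.0 FPKM, low). Among MacHigh libraries, replicate 3 was high for Nkg7 (20.6 FPKM) and Siglec5 (3.29 FPKM), and replicate 1 was high for Cma1 (0.336 FPKM) and low for Cpox (7.78 FPKM).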

How the results depend on the processing

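Over the 25 alternative fits, 3682 to 6006 rows were called (4572 as reported), 3767 to 4387 of them when single libraries were left out, and 0 rows called in both fits had opposite signs. Equal FPKM sums gave 3198 higher and 1032 lower rows, with 107 lower by 1 or more. A pseudocount of 0.1 gave 517 rows higher by 1 or more and a filter on a mean of 5 FPKM gave 148, with 8897 rows tested. Ly6a was 0.03 with equal sums and ran from -0.20 to 0.01 when single libraries were left out. Cd37 was 0.03 with equal sums. Pecam1 was 0.16 with equal sums, 0.02 after quantile normalization and -0.09 to 0.03 without single libraries; none of these 3 genes was called. The cause was not tested.

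With the prefix as a replicate block, 6006 rows were called in all 24 libraries, 5974 in the 10 compared and 5973 in the 8 with a shared prefix, a fit chosen after seeing the data. A sign-flip test of 4 pairs gave -0.90 for Itgam, 0.82 for Kit and -0.13 for Ly6a. Each had the smallest p that 4 pairs allow (exact p = 0.125), so this test does not set the genes apart. Of the 153 genes named by rule, the block made calls of Bst2 (-0.41) and Selp (-0.49) and changed no other call. In lists with 0 lower members, 1 or 2 were lower without single libraries (T cell, NK cell, megakaryocyte, and mast cell and basophil); 2 stem cell genes were lower without MacHigh replicate 4, and 2 ribosomal genes without MacHigh replicate 1. The 1 lower eosinophil gene was not called in 7 such fits. Absolute depth is unknown, so no counting limit can be set for genes near 0.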
